A study of Mus musculus with 38 samples.

Results

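The genes described here are 37 genes that adipocytes (fat cells) use to store, release, take up and make fat, taken by symbol from a list and found, all 37, among the 19218 genes of a count table of mouse tail skin. They were grouped by role into 3 genes of the droplet coat, 9 of lipolysis and its control, 7 of the uptake and handling of fatty acids and glucose, 10 of synthesis and 8 regulators and receptors. The list was not built from the measured values, but it was drawn up with earlier results of these libraries known. Bulk RNA of tail skin was sequenced in 38 libraries of 6 groups. Mice labelled wild type were left without induction (no_induction, 9 libraries) or given ABX (no_induction_ABX, 6 libraries). Others were given the vitiligo induction alone (vitiligo, 9 libraries) or the induction and ABX (vitiligo_ABX, 6 libraries). Mice labelled wild type in the other groups received hippuric acid (hippuric_acid, 5 libraries) or its vehicle (vehicle, 3 libraries) by intraperitoneal injection. Wild type stands in the treatment label, which names no genotype for the mice with induction. In vitiligo, pigment cells are lost from patches of skin. ABX was used in the study to deplete gut microbes, and hippuric acid is a glycine conjugate whose precursor gut microbes make. How the induction was done, what ABX held, and the strain, age, dose and timing are not given in the sources used here.

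An adipocyte keeps triglyceride in a large lipid droplet. Perilipin (Plin1) coats the droplet and guards it, and on a hormonal signal Pnpla2, Lipe and Mgll cut triglyceride into fatty acids one after the other. Lpl frees fatty acids from lipoproteins in the capillary, Cd36 and Fabp4 carry them into and through the cell, and the enzymes from Gpd1 to Dgat2 build them back into triglyceride, under the nuclear receptor Pparg and the factor Cebpa. Skin holds such cells in a layer below the dermis, and sebaceous glands of the skin make lipid with several of the same enzymes.

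The table held 15.3 to 27.9 M estimated counts per library. The labels do not tell whether 2 libraries of a group are 2 mice, and every p-value here rests on the spread among libraries, which may be technical. Keratinocyte markers summed to 14441 to 18687 CPM (counts per 1 M counts) in hippuric_acid, the group with the lowest library, and to 34567 to 46057 in vehicle. They summed to 14494 to 28865 in no_induction_ABX and 15613 to 26132 in vitiligo_ABX, beside 23415 to 49009 in no_induction and 19507 to 37925 in vitiligo. Skeletal muscle markers summed to at most 19.2 CPM in any library. Hoxb13, a homeobox gene expressed toward the tail end of the body, separated the groups. Its level was 0.323 to 9.62 CPM in vitiligo, 2.06 to 12.3 CPM in no_induction, 4.29 to 9.31 CPM in vehicle, and 13.8 to 37.7 CPM in the 17 libraries given ABX or hippuric acid. Gastrointestinal transcripts stood apart in 5 libraries (no_induction 011 and 012, vehicle 001, vitiligo 000 and 260), and Y-linked transcripts in 3 of the libraries (no_induction 011 and 012, vehicle 001). In these 3 the Y-linked genes summed to 229, 197 and 173 CPM, and elsewhere to at most 0.315 CPM. All 3 lie in groups that serve as the reference of a comparison, so the sex of the mice was not balanced between the groups. A cohort of libraries and either treatment cannot be told apart in this design. In bulk tissue, fewer fat cells and less RNA of these genes per cell cannot be told apart either.

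RefSeq start sites (GRCm38.p6) were listed for 25 of the 37 genes, with 36 starts in all. The 250 bases before each start were searched on both strands for the C/EBP core TTGCNNAA, the motif of the family of Cebpa and Cebpb, found in 3 of 36 windows (8.33%) against 9.56% of 32851 windows of all genes. The windows of the 3 genes with a match, Plin1, Cidec and Pparg, are shown, since the levels of these genes are given by library or group, with the matches in capitals (5′ to 3′ on the strand of the gene). The Plin1 stretch is chr7:79732904-79733026 on the minus strand, the part of its window outside annotated exons, and holds the first of 2 matches, whose first bases lie 187 and 58 bases before the start. The Cidec window is chr6:113434765-113435014 on the minus strand, with a match 198 bases before the start. The Pparg window is chr6:115421816-115422065 on the plus strand, before the most downstream of its 3 listed starts, with matches 215 and 16 bases before it.
Plin1: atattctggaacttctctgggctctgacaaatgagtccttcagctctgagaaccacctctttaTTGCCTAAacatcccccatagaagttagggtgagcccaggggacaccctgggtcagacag
Cidec: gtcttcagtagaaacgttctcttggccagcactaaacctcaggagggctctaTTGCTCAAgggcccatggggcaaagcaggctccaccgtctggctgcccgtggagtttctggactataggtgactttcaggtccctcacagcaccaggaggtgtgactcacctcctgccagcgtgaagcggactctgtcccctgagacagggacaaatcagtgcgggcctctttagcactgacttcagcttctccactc
Pparg: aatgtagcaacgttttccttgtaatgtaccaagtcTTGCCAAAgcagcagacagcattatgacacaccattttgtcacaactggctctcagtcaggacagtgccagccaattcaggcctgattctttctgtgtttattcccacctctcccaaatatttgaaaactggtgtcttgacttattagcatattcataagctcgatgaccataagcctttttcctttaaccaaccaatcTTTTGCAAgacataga
The DR1 element AGGNCANAGGNCA, a pair of half-sites of the kind Pparg binds with its partner, was in 0 of 36 windows against 0.338% of all windows. The SREBP-type motif TCACNCCAC was in 1 window, 76 bases before a start of Acsl1 (2.78% of 36 against 1.05%), and the single half-site AGGTCA was in 7 windows of 5 genes, Acly, Aqp7, Cd36, Lpin1 and Pparg (19.4% against 14.0%). These are matches of letters only.

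In vitiligo, 28 of the 37 genes rose against no_induction and none fell. Across all 13826 genes tested, 5.27% were called higher and 2.47% lower. A gene was called when its p from edgeR's quasi-likelihood test, adjusted by the Benjamini-Hochberg method over all genes tested, lay under 0.05. The median log2 fold change of the 37 genes was 1.24, beside 0.01 for all genes tested, and 35 of the 37 changes were above 0. In 14 of them every vitiligo library was above every no_induction library, a separation shown by 0.694% of all genes tested. Without the libraries with gastrointestinal transcripts 26 of the 37 were called, and Pnpla3 (a lipase-like protein of the droplet) and Insr no longer passed. With the Hoxb13 level in the model 25 were called, with Pnpla3, Thrsp and Insr lost.

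ABX went with lower levels of the same list. In vitiligo_ABX against vitiligo, 30 of the 37 genes fell and none rose, with a median of -1.77 on the log2 scale, where 8.05% of all 14014 genes tested fell and 5.06% rose. The groups did not overlap in 26 of the 37 genes, against 2.03% of all genes. In no_induction_ABX against no_induction, 24 of the 37 fell and 1 rose, with a median of -0.95. There the background was high as well: 15.8% of 13971 genes fell and 15.4% rose. The groups did not overlap in 16 of the 37, all lower with ABX, against 4.43% of all genes. Hoxb13 differed between the groups without overlap in both comparisons, and with its level in the model 10 of the 37 were called in vitiligo_ABX against vitiligo and 0 in no_induction_ABX against no_induction. Hoxb13 and ABX cannot be told apart by these groups. The vitiligo libraries stand in both comparisons under induction and the no_induction libraries in both comparisons against them, so the rise and the falls are not independent measurements.

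Hippuric acid went with lower levels too. Against vehicle, 21 of the 37 genes fell and none rose, with a median of -1.18, where 8.29% of 14097 genes tested fell and 5.48% rose. Hoxb13 lay at 26.3 to 37.7 CPM with hippuric acid and at 4.29 to 9.31 with vehicle, and with its level in the model 1 of the 37 was called, Acaca, which was then higher. Hoxb13 and hippuric acid cannot be told apart by these groups, so that fit does not separate them. Leaving out 1 library at a time gave 16 to 23 genes, with the lowest number without vehicle 002. Neither vehicle against no_induction nor ABX with and without induction gave many calls. In the first, 0 of 37 were called, where 0% of 14175 genes were called higher and 0% lower. An unadjusted edgeR p under 0.05 was found there in 23 of the 37, beside 509 of all 14175 genes tested, and 32 of the 37 changes were above 0. DESeq2 called 5 genes of all in that comparison and none of the 37. In vitiligo_ABX against no_induction_ABX, 1 of the 37 rose (Lgals12) and none fell, where 3.72% of 13876 genes rose and 1.25% fell.

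**Figure D1:**
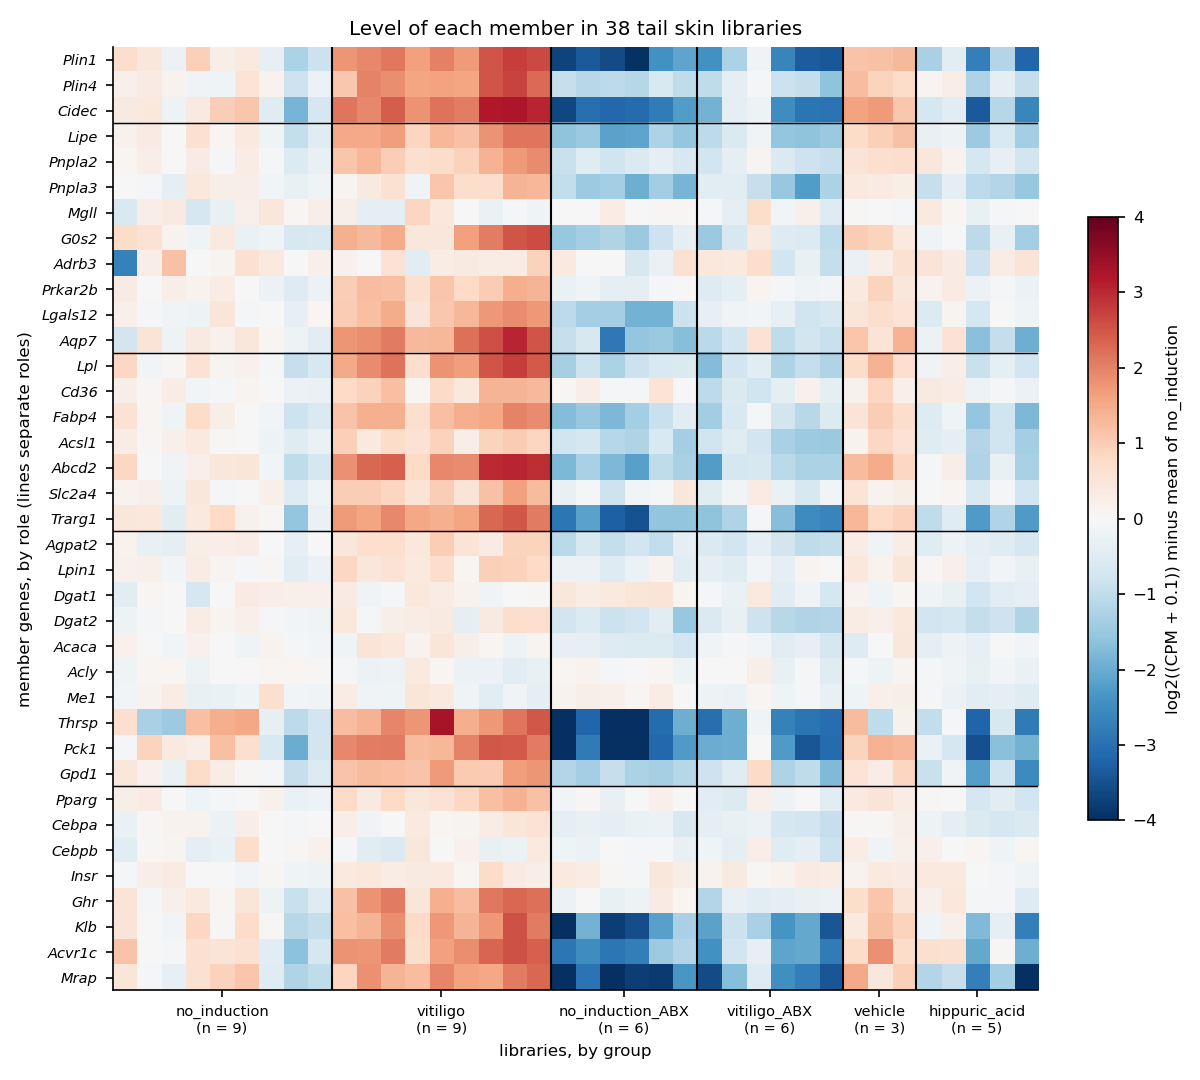
Level of the 37 genes (rows, by role, separated by lines) in the 38 libraries (columns, by group), as the difference of log2(CPM + 0.1) from the mean of no_induction; the colour scale ends at -4 and 4, and values beyond it take the end colours. Vitiligo libraries are red over most rows and ABX libraries blue, while Mgll, Acly, Me1 and Cebpb show little colour in any group.

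The level of these genes in skin ran over a wide range. Per kilobase of exon, the mean level in no_induction ran from 0.196 CPM per kilobase in Adrb3, the beta-3 adrenergic receptor, to 184 in Mgll, the lipase of the last step. Cebpa (97.6), Dgat2 (81.4), Me1 (76.5) and Fabp4 (75.4 CPM per kilobase) followed Mgll, and Klb (0.841) and Aqp7 (0.521) came just before Adrb3. Plin1, which is made by adipocytes, stood at 12.4 and ranked 18 of 37 on this scale. The group mean was highest in vitiligo for 33 of the 37 genes, and lowest in no_induction_ABX for 22, in vitiligo_ABX for 7 and in hippuric_acid for 6.

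All 3 genes of the droplet coat, Plin1, Plin4 and Cidec, rose in vitiligo and fell in both ABX comparisons and with hippuric acid. Where 3 levels are given for a group, they are those of its lowest, median and highest library. Plin1 had 21.3, 61.1 and 100.4 CPM in no_induction and 162, 211 and 352 CPM in vitiligo. With ABX it lay at 3.29, 4.56 and 12 CPM without induction and at 4.8, 8.84 and 47.3 CPM with it. Every vitiligo library was above every library without induction, and every ABX library was below every vitiligo library. The log2 fold change was 2.05 ± 0.26 (edgeR adjusted p = 6.8e-05) in vitiligo, -3.86 ± 0.48 (edgeR adjusted p = 6.22e-05) with ABX under induction, and -3.18 ± 0.40 (edgeR adjusted p = 7.95e-05) with ABX alone (± SE throughout). Cidec, which drives droplets to merge into large ones, ran 8.17, 38.8 and 65.4 CPM in no_induction and 105, 137 and 286 CPM in vitiligo. It ran 2.3, 3.55 and 6.28 CPM in no_induction_ABX and 3.79, 6.7 and 25.9 CPM in vitiligo_ABX. Its change of 2.35 ± 0.32 (edgeR adjusted p = 0.000117) was the largest rise of the 37 in vitiligo, and the change with ABX was -3.92 ± 0.47 under induction and -3.18 ± 0.42 without it, again with no overlap between groups. Plin4, another perilipin of the droplet surface, had 61.7, 119 and 159 CPM in no_induction and 229.5, 391 and 708 CPM in vitiligo. It had 49.3, 53 and 70.7 CPM in no_induction_ABX and 35.5, 57.9 and 106 CPM in vitiligo_ABX, with a change of -1.0 ± 0.16 with ABX alone and -2.70 ± 0.27 under induction.

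**Figure D2:**
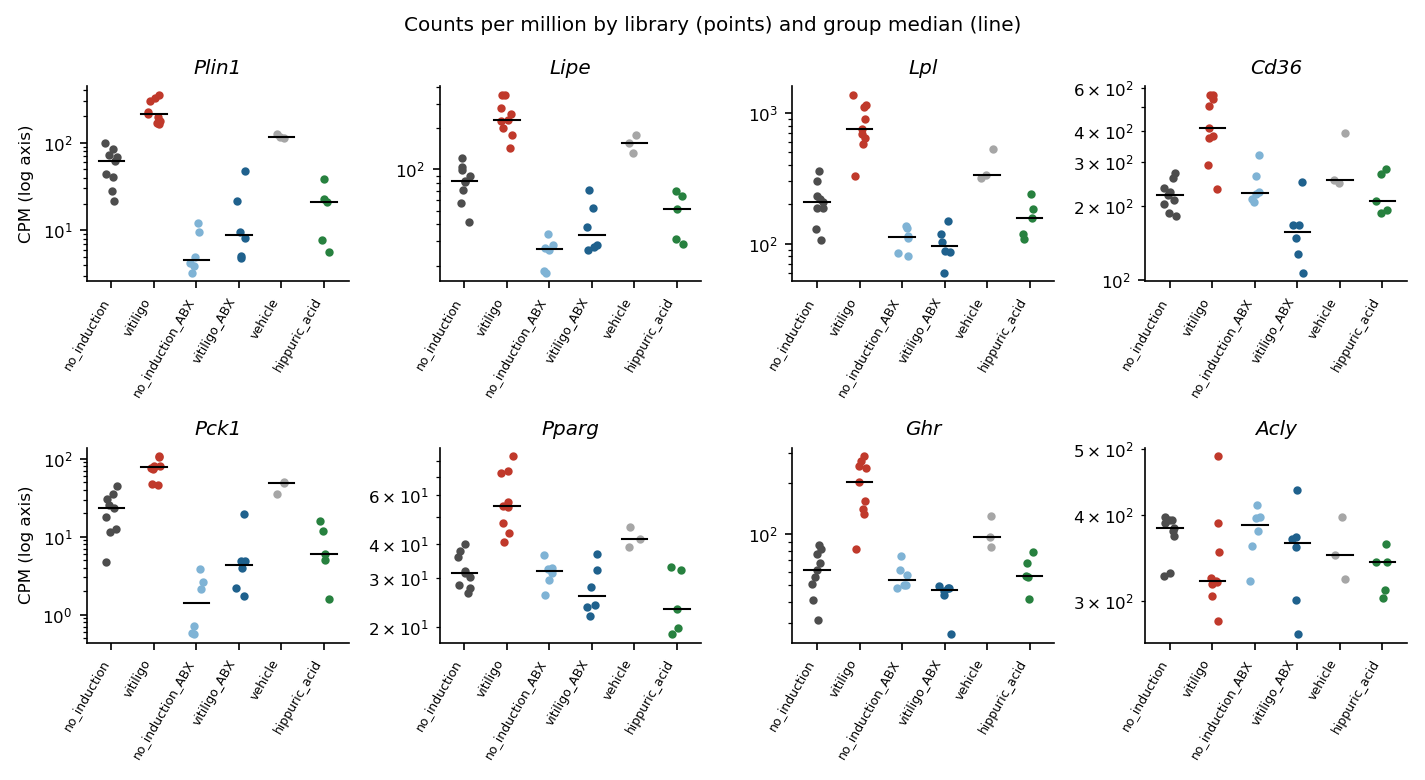
CPM of 8 genes in each library (points) and the median of each group (line), by group, on a log axis that differs between panels. Plin1 lies at 162 CPM and above in vitiligo and at 47.3 CPM and below with ABX, while for Acly the groups overlap.

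Of the 9 genes of lipolysis and its control, 7 rose in vitiligo, 7 fell with ABX under induction and 6 with ABX alone. Lipe, hormone-sensitive lipase, which takes the second fatty acid, had 41.2, 83 and 122 CPM in no_induction and 143, 227 and 348 CPM in vitiligo. In no_induction_ABX it had 17.8, 26.5 and 33.8 CPM and in vitiligo_ABX 25.8, 33.2 and 71.4 CPM. No vitiligo library overlapped any library of the 3 other groups, and the changes were 1.58 ± 0.19 (vitiligo), -2.58 ± 0.26 (ABX under induction) and -1.71 ± 0.21 (ABX alone), with edgeR adjusted p of 6.08e-05, 1.19e-05 and 4.58e-05. Pnpla2, adipose triglyceride lipase, which takes the first fatty acid, had 87.1, 127 and 161 CPM in no_induction and 200.5, 276 and 469.9 CPM in vitiligo. With ABX it had 68.9, 83.4 and 99.3 CPM without induction and 68, 80.9 and 137 CPM with it. The ABX libraries of the groups with and without induction overlapped, and the change was -1.74 ± 0.21 (edgeR adjusted p = 4.52e-05) from vitiligo and -0.63 ± 0.12 (edgeR adjusted p = 0.00126) from no_induction. Among the others, Lgals12 (a galectin of the lipid droplet) rose by 1.41 ± 0.16 in vitiligo, Prkar2b (a regulatory subunit of protein kinase A) by 1.11 ± 0.12, and Aqp7 (the glycerol channel) by 2.21 ± 0.24. G0s2, an inhibitor of Pnpla2, changed in the same direction as Pnpla2, by 1.68 ± 0.28 in vitiligo and -2.25 ± 0.36 with ABX under induction. Aqp7 is a low gene here, at 0.807, 1.5 and 2.07 CPM in no_induction and 3.59, 6.26 and 12.5 CPM in vitiligo.

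Mgll and Adrb3 were called in no comparison. Mgll, which releases the last fatty acid from monoglyceride, was the member with the highest level per kilobase and had 561, 1035 and 1239 CPM in no_induction, 689, 859.8 and 1651 CPM in vitiligo and 626, 850.0 and 1475 CPM in vitiligo_ABX. Its log2 change in vitiligo was 0.06 ± 0.18, with a 95% interval of -0.32 to 0.45. Adrb3 reached at most 1.35 CPM in a library of no_induction, and its interval of -0.59 to 0.85 for vitiligo is wide, so a change of moderate size was not detectable at this depth.

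All 7 genes of uptake and handling rose in vitiligo and fell with ABX under induction, and 5 of them fell with ABX alone. Lpl, lipoprotein lipase, had 107, 207 and 357 CPM in no_induction and 327, 753 and 1371 CPM in vitiligo. With ABX it had 80.4, 113 and 136 CPM without induction and 60.3, 96.1 and 149 CPM with it. The 2 groups without ABX overlapped at their edges, and every ABX library with induction was below every vitiligo library. Its change was 1.99 ± 0.25 (edgeR adjusted p = 6.8e-05) in vitiligo and -3.04 ± 0.29 (edgeR adjusted p = 1.16e-05) with ABX under induction, a fall of 8.22 fold, beside -0.95 ± 0.22 with ABX alone. Cd36, the fatty acid transporter, had 181, 220.4 and 269.9 CPM in no_induction and 233, 413 and 560.4 CPM in vitiligo. It had 207, 225 and 321 CPM in no_induction_ABX and 107, 157 and 249 CPM in vitiligo_ABX. The ABX libraries without induction overlapped those of no_induction, and 1 or more vitiligo_ABX libraries overlapped the lowest vitiligo library. Its change with ABX was -1.41 ± 0.21 (edgeR adjusted p = 0.000399) under induction and 0.14 ± 0.11 (edgeR adjusted p = 0.346) without. Slc2a4, the insulin-responsive glucose transporter GLUT4, had 10.6, 14.8 and 20.6 CPM in no_induction and 21.9, 29.8 and 47.5 CPM in vitiligo, with no overlap. It had 8.41, 14.3 and 20.9 CPM in no_induction_ABX and 9.7, 13.3 and 19.2 CPM in vitiligo_ABX, and its change with ABX was -1.21 ± 0.18 (edgeR adjusted p = 0.000341) under induction and -0.11 ± 0.16 (edgeR adjusted p = 0.626) without. Trarg1, a partner of that transporter, rose by 1.80 ± 0.22 in vitiligo, and Abcd2, a peroxisomal carrier of long fatty acids, by 2.31 ± 0.28, from 8.23, 17 and 29.8 CPM to 29.4, 84.2 and 140.2 CPM. Fabp4, the fatty acid binding protein of adipocytes, rose by 1.41 ± 0.20, and Acsl1, which activates fatty acids with coenzyme A, by 0.75 ± 0.12.

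The genes of synthesis split. Of 10, 5 rose in vitiligo (Agpat2, Lpin1, Thrsp, Pck1 and Gpd1), 7 fell with ABX under induction, and with ABX alone 6 fell and 1 rose. Pck1, which makes the glycerol backbone from smaller acids, had 4.78, 23.1 and 44.7 CPM in no_induction and 46.2, 79.8 and 108 CPM in vitiligo. With ABX it had 0.563, 1.41 and 3.89 CPM without induction and 1.71, 4.39 and 19.7 CPM with it. The groups without ABX did not overlap, nor did either ABX group with its counterpart. Its change was 1.79 ± 0.30 (edgeR adjusted p = 0.000726) in vitiligo, -3.63 ± 0.45 with ABX under induction and -3.71 ± 0.55 with ABX alone. Thrsp, a lipogenic nuclear protein, had 2.93, 6.49 and 23.8 CPM in no_induction and 19.5, 28 and 80.2 CPM in vitiligo. It had 0.313, 0.616 and 2.02 CPM in no_induction_ABX and 0.889, 1.08 and 7.38 CPM in vitiligo_ABX. The groups with and without induction overlapped, and its change in vitiligo was 1.68 ± 0.41 (edgeR adjusted p = 0.0159). Agpat2, which adds the second fatty acid to the backbone, had 31.1, 40.2 and 49.2 CPM in no_induction and 49.8, 63 and 78.1 CPM in vitiligo, with no overlap. It had 18.8, 22 and 30.04 CPM in no_induction_ABX and 19.8, 23.6 and 30.6 CPM in vitiligo_ABX, and its change was 0.67 ± 0.11 (edgeR adjusted p = 0.000777) in vitiligo and -1.38 ± 0.13 (edgeR adjusted p = 9.71e-06) with ABX under induction.

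The enzymes that close triglyceride synthesis and those that supply its carbon gave other results. Dgat2, which adds the last fatty acid, had 218, 238 and 306 CPM in no_induction and 196, 318 and 402 CPM in vitiligo, and was not called there (0.34 ± 0.12, edgeR adjusted p = 0.0782). It fell with ABX, to 88, 148 and 182 CPM without induction and 108, 129 and 202 CPM with it, with changes of -0.78 ± 0.13 and -1.14 ± 0.17. Dgat1, the other enzyme of that step, is the member called in the opposite direction: 47.5, 79.9 and 93.7 CPM in no_induction and 81.1, 101 and 108 CPM in no_induction_ABX, a change of 0.36 ± 0.13 (edgeR adjusted p = 0.0429). The groups overlapped, and the call was lost in 9 of the 15 fits that left out 1 library, with the largest adjusted p, 0.0934, without no_induction_ABX 005. Acaca, the first committed enzyme of fatty acid synthesis, fell with ABX under induction (-0.47 ± 0.13) and alone (-0.49 ± 0.08), the former lost without vitiligo_ABX 006 (adjusted p = 0.0553). Acly, which makes cytosolic acetyl coenzyme A, had 326, 384 and 398 CPM in no_induction, 281, 320.5 and 487 CPM in vitiligo, 321, 387 and 413 CPM in no_induction_ABX and 269, 364 and 436 CPM in vitiligo_ABX. It was called in no comparison, and the 95% interval of its change in vitiligo was -0.29 to 0.10. Me1, malic enzyme, which supplies NADPH, was likewise not called in any, at 0.00 ± 0.14 in vitiligo.

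Of the 8 regulators and receptors, 6 rose in vitiligo, 6 fell with ABX under induction and 4 with ABX alone. Pparg had 26.5, 31.4 and 39.8 CPM in no_induction and 40.5, 55 and 83.1 CPM in vitiligo, with no overlap. It had 26.1, 31.9 and 36.4 CPM in no_induction_ABX and 22, 25.9 and 36.8 CPM in vitiligo_ABX. The change was 0.89 ± 0.13 (edgeR adjusted p = 0.000197) in vitiligo, -1.07 ± 0.16 (edgeR adjusted p = 0.00053) with ABX under induction, and -0.02 ± 0.10 (edgeR adjusted p = 0.877) with ABX alone. Cebpa, which works with Pparg in adipocytes and is also made in other skin cells, had 214, 254 and 306 CPM in no_induction and 231, 307 and 379 CPM in vitiligo, and was not called (0.26 ± 0.10, edgeR adjusted p = 0.106). It fell to 163, 202 and 218 CPM in no_induction_ABX and 134, 177 and 219.5 CPM in vitiligo_ABX, with changes of -0.36 ± 0.09 and -0.76 ± 0.13. Cebpb, an early factor of fat cell formation, was called in no comparison, with 52.6, 73.5 and 116 CPM in no_induction, 47.1, 67.5 and 97.6 CPM in vitiligo and a 95% interval of -0.37 to 0.28 for its change. Insr, the insulin receptor, had 35.7, 40.3 and 51.2 CPM in no_induction and 43.6, 52.2 and 68 CPM in vitiligo, a rise of 0.38 ± 0.09 (edgeR adjusted p = 0.00816). Without the libraries with gastrointestinal transcripts its change was 0.30 and its edgeR adjusted p 0.0731. Its levels with ABX were 38.6, 49.1 and 56.3 CPM and 42.1, 47.4 and 52.4 CPM, and neither ABX comparison was called. Other receptors rose as well: Ghr, the growth hormone receptor, rose by 1.70 ± 0.23 in vitiligo, Acvr1c, an activin-type receptor of fat, by 1.82 ± 0.28, Klb, the co-receptor for FGF21, by 1.63 ± 0.26, and Mrap, the partner of the ACTH receptor, by 1.54 ± 0.28. Klb had 1.57, 3.57 and 6.27 CPM in no_induction, 6.06, 11.8 and 21.1 CPM in vitiligo and 0.0939, 0.449 and 1.35 CPM in no_induction_ABX.

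**Figure D3:**
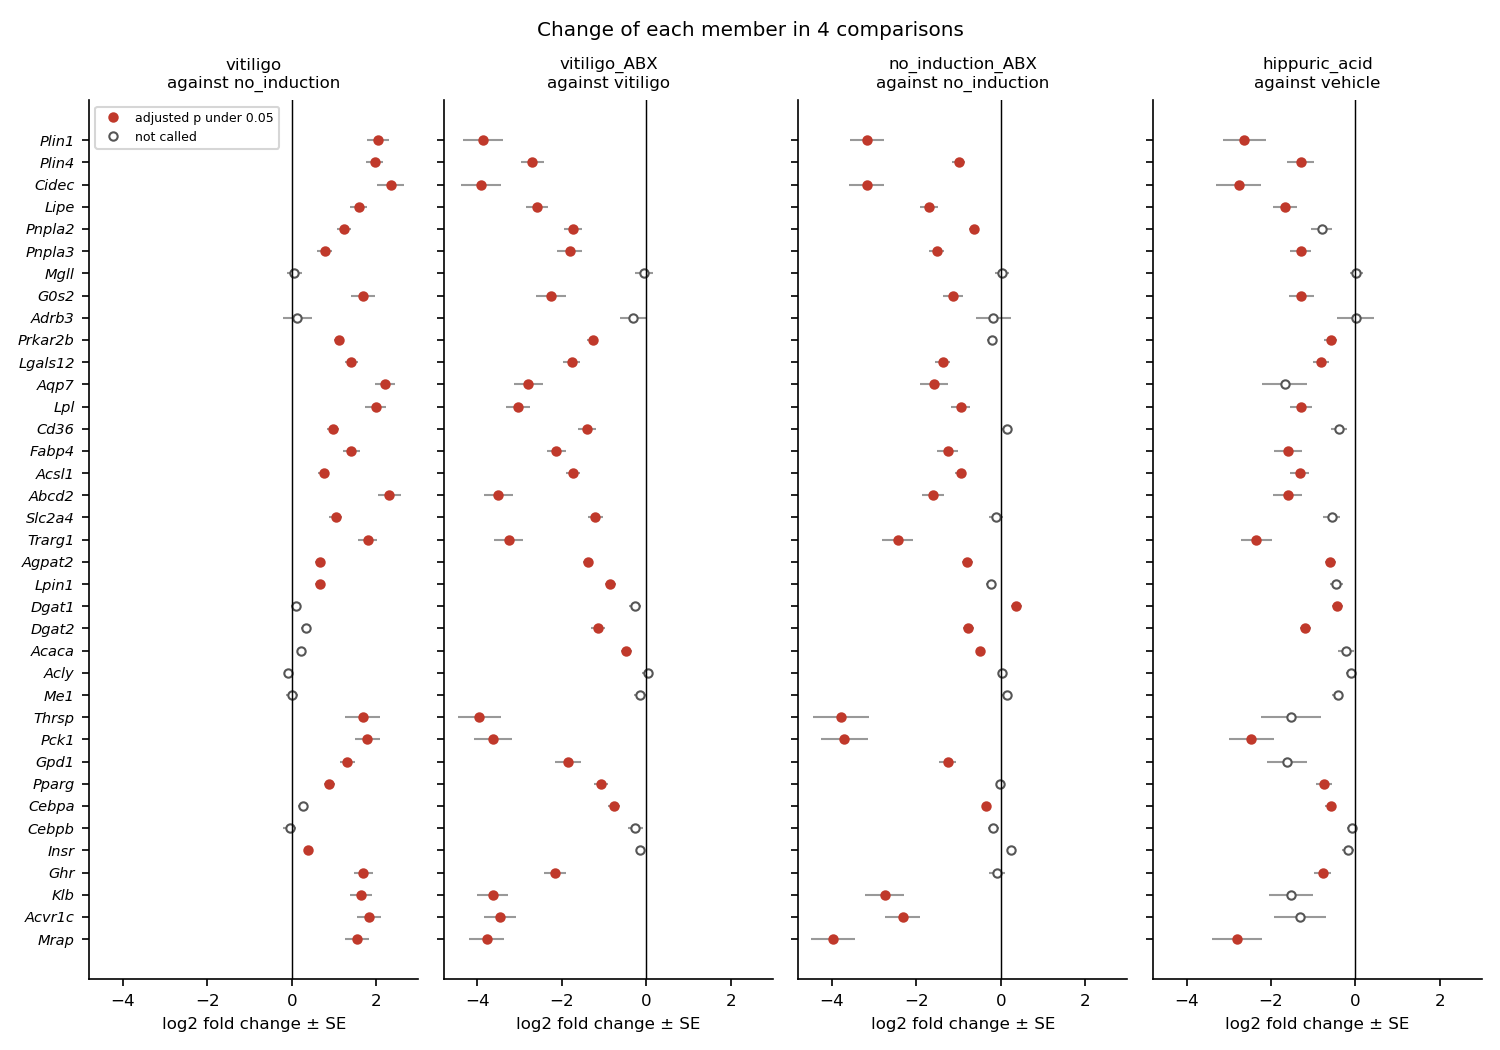
Log2 fold change (x axis, bars ± SE) of each of the 37 genes (y axis) in 4 comparisons; filled points passed at an edgeR adjusted p under 0.05. In vitiligo the filled points lie to the right of 0, and in the other 3 panels to the left, with Dgat1 in no_induction_ABX the exception.

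ABX did not lower all of these genes to the same degree with and without induction. The interaction, the change with ABX under induction minus the change with ABX alone, was called for 14 of the 37 genes, all negative, where 4.77% of 14310 genes tested were called lower and 6.68% higher. The median interaction was -0.70 over the 37 genes, beside -0.03 over all genes tested. Ghr had 31.3, 61.9 and 86.4 CPM in no_induction and 48, 54.1 and 74.5 CPM in no_induction_ABX, which overlapped, and 81.5, 203 and 287 CPM in vitiligo and 25.8, 47 and 49.7 CPM in vitiligo_ABX, which did not. Its change with ABX was -0.10 ± 0.19 without induction and -2.16 ± 0.25 with it, and the interaction was -2.08 ± 0.32 (edgeR adjusted p = 0.000397). Lpl had the largest interaction, -2.10 ± 0.36 (edgeR adjusted p = 0.000708), followed by Ghr, Abcd2 (-1.91 ± 0.43), Plin4 (-1.72 ± 0.31) and Cd36 (-1.57 ± 0.24). Pnpla2 (-1.13 ± 0.25), Slc2a4 (-1.11 ± 0.25), Prkar2b (-1.07 ± 0.18), Pparg (-1.06 ± 0.20) and Acsl1 (-0.80 ± 0.22) were also called. By role, 5 of 7 genes of uptake, 3 of 10 of synthesis, 3 of 8 regulators, 2 of 9 of lipolysis and 1 of 3 of the droplet coat were called.

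The interaction was not called for Plin1 (-0.70 ± 0.59, edgeR adjusted p = 0.464, 95% interval -1.90 to 0.50), Cidec (-0.76 ± 0.60), Pck1 (0.06 ± 0.64), Thrsp (-0.18 ± 0.87) or Mrap (0.18 ± 0.65), whose falls with ABX were large in both settings and whose intervals are wide. Of the 14 calls, 4 depended on single libraries. Insr (-0.40 ± 0.13) was lost in 19 of 30 fits that left out 1 library, with the largest adjusted p, 0.0979, without no_induction_ABX 005, and Dgat1 (-0.64 ± 0.20) in 6, with 0.0665 without the same library. Agpat2 (-0.60 ± 0.18) was lost in 4, with at most 0.0678 without no_induction_ABX 006, and Lpin1 (-0.62 ± 0.18), a phosphatidate phosphatase, in 2, with at most 0.0625 without no_induction_ABX 005. Leaving out 1 library gave 11 to 19 calls among the 37. Without the libraries with gastrointestinal transcripts Acsl1, Lpin1 and Insr were not called. On the 18 libraries that share numbers across the groups, none of the 37 was called, and the value without a block was -1.33 in Lpl, -1.09 in Cd36, -0.88 in Pparg, -0.68 in Slc2a4 and -0.15 in Insr.

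**Figure D4:**
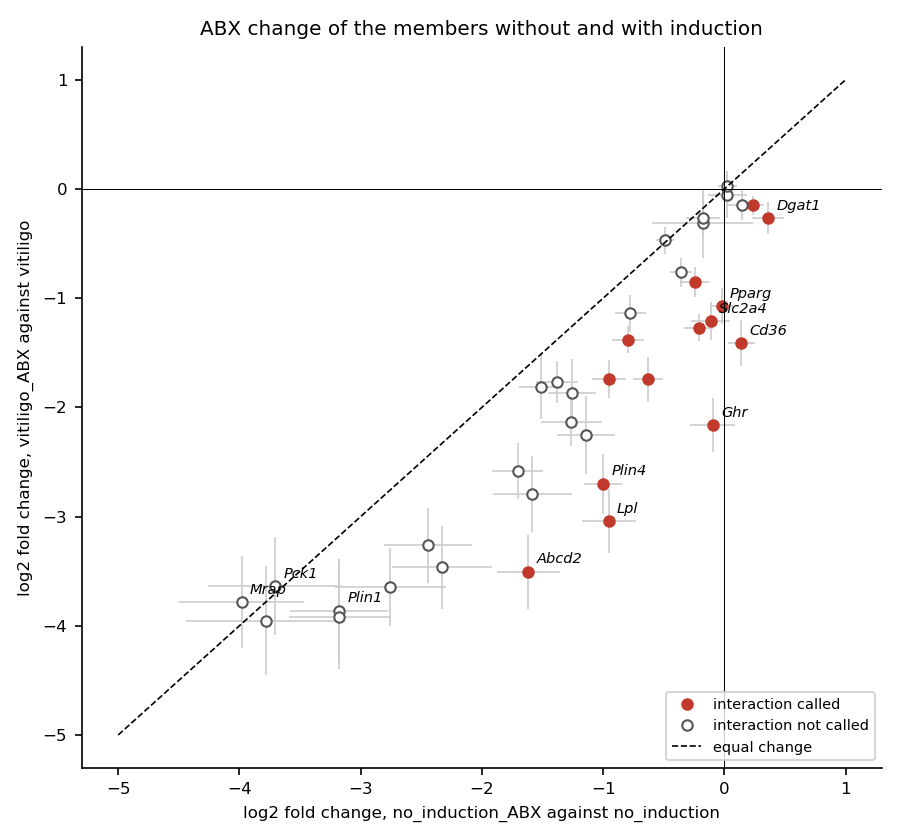
Log2 fold change with ABX under induction (y axis) against that with ABX alone (x axis) for the 37 genes, bars ± SE, with a dashed line of equal change; filled points have a called interaction. Ghr, Cd36, Slc2a4 and Pparg lie near 0 on the x axis and between -2.16 and -1.07 on the y axis, while Mrap and Pck1 lie near the dashed line. All points come from the same 30 libraries.

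Between the groups given ABX, with and without induction, few of these genes were called. Lgals12 was the 1 member called between vitiligo_ABX and no_induction_ABX, at 4.94, 6.95 and 8.09 CPM against 2.26, 3.36 and 4.82 CPM, a change of 1.01 ± 0.20 (edgeR adjusted p = 0.0137). Every vitiligo_ABX library was above every no_induction_ABX library. How many of all genes tested were separated in this way was not counted. The median change of the 37 was 0.12. An unadjusted edgeR p under 0.05 was found in 12 of the 37, beside 2889 of all 13876 genes tested. Pck1 (1.85 ± 0.67), Mrap (1.73 ± 0.67) and Cidec (1.60 ± 0.51, edgeR adjusted p = 0.0955) had the largest differences that did not pass. In Plin1 the 95% interval of the difference was 0.07 to 2.65. DESeq2 called 5 of the 37: Lgals12 and Cidec higher and Cd36, Dgat1 and Me1 lower. Leaving out vitiligo_ABX 003 or no_induction_ABX 006 gave 3 calls, and leaving out vitiligo_ABX 005 gave 2.

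With hippuric acid, genes of all 5 roles fell against vehicle: 3 of 3 of the droplet coat, 5 of 9 of lipolysis, 5 of 7 of uptake, 4 of 10 of synthesis and 4 of 8 regulators. Plin1 lay at 114, 116 and 126 CPM in the vehicle libraries and at 21.2, 38.2, 7.74, 22.8 and 5.63 CPM in those with hippuric acid. Every hippuric acid library was below every vehicle library, and the change was -2.63 ± 0.51 (edgeR adjusted p = 0.0127). Cidec lay at 91.4, 97.6 and 63.8 CPM with vehicle and 18.4, 21.9, 2.86, 13.7 and 4.85 CPM with hippuric acid, again without overlap (-2.77 ± 0.54, edgeR adjusted p = 0.0131). Lipe lay at 132, 155 and 179 CPM with vehicle and 64.2, 69.3, 28.8, 51.8 and 31.1 CPM with hippuric acid (-1.66 ± 0.28, edgeR adjusted p = 0.00568). Hippuric_acid libraries 3 and 5 were the lowest in Plin1, Cidec and Lipe. Lpl lay at 336, 531 and 318 CPM with vehicle and 184, 241, 109, 158 and 119.6 CPM with hippuric acid (-1.28 ± 0.26, edgeR adjusted p = 0.0122). Pck1 lay at 35.6, 50.4 and 48.9 CPM with vehicle and 16, 12, 1.59, 6 and 5.09 CPM with hippuric acid (-2.47 ± 0.53, edgeR adjusted p = 0.019). In both genes the groups did not overlap. The share of all genes tested with such a separation was not counted for this comparison.

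Dgat2 had the smallest adjusted p of the 37 in this comparison: it lay at 307, 284 and 331 CPM with vehicle and 147, 155, 127, 141 and 107 CPM with hippuric acid, a fall of 2.27 fold (log2 change -1.18 ± 0.12, edgeR adjusted p = 0.000617). Its libraries were close together within each group. Cebpa fell as well, from 265, 263 and 300.3 CPM to 223, 195, 171, 160.5 and 169.7 CPM (-0.59 ± 0.12, edgeR adjusted p = 0.0108). Pparg lay at 41.8, 46 and 38.9 CPM with vehicle and 32.9, 32.2, 19.9, 23.1 and 18.8 CPM with hippuric acid. Its change of -0.73 ± 0.19 (edgeR adjusted p = 0.0279) did not pass without vehicle 002 (0.0730), hippuric_acid 3 (0.0614) or hippuric_acid 4 (0.0648). Agpat2 fell (-0.59 ± 0.13) and did not pass without vehicle 003 (adjusted p = 0.0584). Lgals12 (-0.82 ± 0.19) and G0s2 (-1.28 ± 0.29) did not pass without vehicle 002 (0.0606 and 0.0518), and the calls of Plin4, Prkar2b, Dgat1 and Ghr also depended on single libraries, with largest adjusted p of 0.107 (without vehicle 001), 0.1004 (without vehicle 002), 0.115 (without vehicle 003) and 0.0803 (without vehicle 002).

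Cd36 was not called with hippuric acid (-0.39 ± 0.19, edgeR adjusted p = 0.192), at 246, 395 and 254 CPM in vehicle and 282, 269, 192, 209 and 187 CPM in hippuric_acid, and Slc2a4 (-0.56 ± 0.20, edgeR adjusted p = 0.0927), Pnpla2 (-0.79 ± 0.25, edgeR adjusted p = 0.0602) and Thrsp (-1.52 ± 0.71, edgeR adjusted p = 0.189) missed the threshold too. DESeq2 called 27 of the 37 genes, among them Pnpla2. The vehicle libraries lay above the middle of no_induction for many members: the 3 Plin1 values were all above the highest no_induction library, at 100.4 CPM, with a change of 1.04 ± 0.34 (edgeR adjusted p = 0.999) that did not pass. The median of Plin1 with hippuric acid, 21.2 CPM, stood beside 61.1 CPM in no_induction and 116 CPM in vehicle. For Lpl these medians were 158, 207 and 336 CPM, and for Dgat2 141, 238 and 307 CPM. Hippuric_acid and no_induction were not tested against each other.

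Markers of fat cells that are not among the 37 genes moved with them. Of 6 fat hormones and secreted markers, all 6 rose in vitiligo, 6 fell with ABX under induction, 5 fell with ABX alone and 4 with hippuric acid. Their sum was 146 to 812 CPM in no_induction and 973 to 2852 CPM in vitiligo. It was 26.5 to 138 CPM in no_induction_ABX, 58.6 to 461 CPM in vitiligo_ABX, 729.8 to 1111 CPM in vehicle and 61.7 to 390.1 CPM in hippuric_acid. By group medians vitiligo had the most in this sum and the ABX groups the least. Single libraries of vitiligo overlapped vehicle, as vitiligo_ABX libraries overlapped no_induction and hippuric_acid. Every no_induction_ABX library was below every no_induction library, and the group overlapped hippuric_acid. Adiponectin (Adipoq) rose by 2.57 ± 0.34 and leptin (Lep) by 4.29 ± 0.49 in vitiligo, beside 2.35 ± 0.32 for Cidec. How far the amount of fat tissue in a piece of skin sets the 37 genes was not tested.

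Markers of other cell types were counted in the same comparisons. The shares of all genes tested called higher and lower were 5.27% and 2.47% in vitiligo. They were 5.06% and 8.05% with ABX under induction, 15.4% and 15.8% with ABX alone, and 5.48% and 8.29% with hippuric acid. An unadjusted edgeR p under 0.05 was found in 3658 of all 13826 genes tested in vitiligo. It was found in 4066 of 14014 with ABX under induction and 4247 of 14097 with hippuric acid. None of 10 sebaceous gland markers was called in vitiligo, with ABX under induction or with hippuric acid (2, 0 and 0 had an unadjusted p under 0.05), and 2, Soat1 and Mc5r, rose with ABX alone. Their sum was 1555 to 4262 CPM in no_induction, 1649 to 5219.9 in vitiligo, 3356 to 4259 in no_induction_ABX, 2362 to 4582 in vitiligo_ABX and 2517 to 3422 in hippuric_acid. Of 8 keratinocyte markers, 1 fell in vitiligo (Dsp), 3 with ABX under induction, 4 with ABX alone and 5 with hippuric acid, the last led by Krt2 (-1.68 ± 0.16) and Krt10 (-1.45 ± 0.16). Of 8 markers of fibroblasts and fat progenitors, Col15a1 rose in vitiligo (0.65 ± 0.15) and fell with ABX under induction (-0.46 ± 0.15). With ABX alone 2 rose, Pdgfra (1.01 ± 0.17) and Dlk1 (0.76 ± 0.24), and 1 fell, Dpp4 (-0.94 ± 0.19), and with hippuric acid Pi16 (1.00 ± 0.14) and Pdgfra (0.48 ± 0.09) rose. Of 9 macrophage markers 0 were called in either comparison with vitiligo libraries (2 in vitiligo and 0 with ABX had an unadjusted p under 0.05), and 1 rose with ABX alone (Cd68, 0.53 ± 0.20) and 1 with hippuric acid (Mrc1, 0.61 ± 0.16). Of 8 endothelial markers, 1 rose in each of the vitiligo, ABX and hippuric acid comparisons (Flt1, Tie1, Emcn and Kdr for vitiligo, ABX under induction, ABX alone and hippuric acid). Of 8 brown and beige fat markers tested, 1 rose in vitiligo (Kcnk3, 0.95 ± 0.28), and 1 fell with ABX under induction (Cox8b, -1.20 ± 0.28). With ABX alone Cox8b (-1.86 ± 0.38) and Cox7a1 (-0.89 ± 0.27) fell and Kcnk3 rose (1.11 ± 0.36), and with hippuric acid 1 of 6 tested rose (Dio2, 1.71 ± 0.49). Most skeletal muscle markers were too low to test. Of 3 tested Myl1 rose in vitiligo (2.63 ± 0.32), of 4 it fell with ABX under induction (-3.68 ± 0.45), and of 5 Acta1 rose with hippuric acid (4.05 ± 0.58).

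Other genes of the same pathways were counted in lists drawn up by known function, with earlier results of these libraries known. Of all genes tested, 5.27% were called higher and 2.47% lower in vitiligo. These shares were 5.06% and 8.05% with ABX under induction, and 5.48% and 8.29% with hippuric acid. Of 13 other droplet and lipolysis genes tested, 4 rose in vitiligo and none fell: Ces1d, a lipase of the droplet (1.07 ± 0.10, edgeR adjusted p = 4.25e-06), Pde3b, which ends the cyclic AMP signal (1.59 ± 0.22), and Cav1 and Cavin1, which shape caveolae. With ABX under induction Ces1d (-1.39 ± 0.15) and Pde3b (-1.51 ± 0.24) fell. With ABX alone 3 of 13 fell (Ces1d, Abhd5 and Adrb1) and 3 rose, Plin5 and Cav1 among them. In that comparison 15.8% of all genes tested fell and 15.4% rose. Plin5, a perilipin of cells that burn fat, changed by 0.92 ± 0.20 there, a rise where Plin1 and Plin4 fell. With hippuric acid Abhd5, the activator of Pnpla2 (-0.34 ± 0.09), and Ces1d (-1.11 ± 0.30) fell.

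For the lists that follow, 5.27% of all genes tested were called higher and 2.47% lower in vitiligo. These shares were 5.06% and 8.05% with ABX under induction, and 5.48% and 8.29% with hippuric acid. Among 12 other genes of fatty acid synthesis, 2 rose in vitiligo and fell with ABX under induction. Mlxipl, the carbohydrate-response factor ChREBP, changed by 1.60 ± 0.21 (edgeR adjusted p = 7.95e-05) and by -2.58 ± 0.32 (edgeR adjusted p = 6.6e-05), and Scd1, the main desaturase, by 0.64 ± 0.13 and -1.10 ± 0.17. With ABX alone 5 fell, led by G6pdx (-0.48 ± 0.09), Scd2 (-0.49 ± 0.11) and Mlxipl (-1.64 ± 0.36), and Elovl6 and Acacb rose, and with hippuric acid 1 fell (Acss2, -0.51 ± 0.14). Of the other genes of triglyceride synthesis (9 tested in vitiligo and 10 with ABX under induction), Gpat3, the first acyltransferase of fat, rose in vitiligo (0.69 ± 0.14) and fell with ABX under induction (-1.42 ± 0.18), with ABX alone (-0.95 ± 0.15) and with hippuric acid (-1.47 ± 0.24). Lpin3 went down in vitiligo, the 1 fall of that list there (-0.29 ± 0.07, edgeR adjusted p = 0.02), and also with ABX alone (-1.05 ± 0.12), and Mogat1 fell with ABX under induction (-1.66 ± 0.47). Of 12 other genes of uptake, Slc27a1, a fatty acid transporter (0.95 ± 0.14), and Angptl4, an inhibitor of Lpl (0.75 ± 0.20), rose in vitiligo, and Slc27a1 fell with ABX under induction (-1.24 ± 0.17) and with hippuric acid (-0.69 ± 0.18). Others of that list rose: Acsl3 with ABX under induction (0.54 ± 0.17), Acsl4 (0.56 ± 0.13) and Lrp1 (0.58 ± 0.18) with ABX alone, where none fell, and Lrp1 with hippuric acid (0.59 ± 0.12). The rises with ABX alone were 2 of 12, where 15.4% of all genes tested were called higher and 15.8% lower.

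Among 15 other regulators and genes of insulin signalling, 5 rose in vitiligo and none fell, led by Sik2 (0.70 ± 0.11, edgeR adjusted p = 0.0004), Nr1h3, the oxysterol receptor LXR alpha (1.33 ± 0.22), and Rxrg, a partner receptor of Pparg (0.83 ± 0.16). With ABX under induction 5 fell, among them Sik2 (-0.99 ± 0.13), Nr1h3 (-1.46 ± 0.24) and the kinase Akt2 (-0.45 ± 0.08), and Igf1r rose (0.58 ± 0.10). With ABX alone Fgfr1 (0.81 ± 0.09), Igf1r (0.55 ± 0.07) and Ebf2 (1.11 ± 0.17) rose and Akt2 fell (-0.20 ± 0.07), 3 and 1 of 15, where 15.4% of all genes tested were called higher and 15.8% lower. With hippuric acid Fgfr1 (0.67 ± 0.12) and Ebf2 (0.77 ± 0.21) rose and Akt2 fell (-0.36 ± 0.09). Of 11 enzymes that burn fatty acids, Acadl (0.48 ± 0.07, edgeR adjusted p = 0.000245) and Acadm (0.22 ± 0.06) rose in vitiligo, Acadm fell with ABX under induction (-0.41 ± 0.09), and Cpt2 fell with ABX alone (-0.21 ± 0.08). With hippuric acid 2 of 12 fell, Hadhb (-0.33 ± 0.10) and Acaa2 (-0.33 ± 0.09). Beside the counts of both lists, 5.27% of all genes tested were called higher and 2.47% lower in vitiligo. These shares were 5.06% and 8.05% with ABX under induction, and 5.48% and 8.29% with hippuric acid.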

How the data were processed

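The authors made and deposited estimated counts per gene, not normalized, in 1 table of 38 tail skin libraries, as its values show. In 3107 of 19218 genes (16.2%), 4 of the 37 among them, some values had decimals. Rounding them moved no library total by more than 22.1. An incomplete last row and a row without a symbol were left out. Trizol extraction, oligo(dT) enrichment and a NovaSeq instrument were used, per the labels' protocols. Per the submitters' processing notes, Bowtie2 2.2.8, HISAT2, StringTie 1.3.1 and DESeq2 were used, with no role stated. Genome build, counter and strand setting are not given in the sources used here, so overlapping and antisense genes could not be told apart.

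Groups follow the treatment in the labels. Differences were tested with edgeR 4.0.16 (R 4.3.3, quasi-likelihood F test, TMM factors, default expression filter, robust fit) on the libraries of the groups compared, the interaction on 30 libraries of 4 groups, two-sided, called at an adjusted p under 0.05. CPM were computed on TMM-scaled totals of all 38 libraries, and exon length came from GENCODE M21. SE were derived from the F statistic. All 37 genes passed the filter in all 7 comparisons. Libraries of a group differed by more than counting noise in every pair (chi-square at least 7.33 times its degrees of freedom). The fit was also run on simulated counts of independent libraries with the same spread for all genes. Those counts held no cohort, so that run does not bear on the calls here. The 37 genes, the other lists and the naming rule were chosen with earlier results of these data known. By that rule 16 genes, and any called against most of its role, are given in full, and the others by counts with those of smallest p. Alternatives were RLE size factors, no filter, DESeq2 1.42.0, all 38 libraries in 1 fit, the library number as a block, leaving out libraries with gastrointestinal transcripts and leaving out each library. Leaving out those with Y-linked transcripts, the Hoxb13 level as a covariate and fits without a block on the libraries of the block fit were added after the data were seen.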

Additional observations from a re-analysis of the deposited data

Results flagged for a closer look

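The interaction of induction and ABX tests whether the change with ABX differed between mice with and without induction. For this interaction 4.77% of all 14310 genes tested were called lower and 6.68% higher. It was called in 14 of the 37 genes, all negative. On the log2 scale it was -1.72 ± 0.31 in Plin4, -1.13 ± 0.25 in Pnpla2, -1.07 ± 0.18 in Prkar2b, -2.10 ± 0.36 in Lpl, -1.57 ± 0.24 in Cd36, -0.80 ± 0.22 in Acsl1 and -1.91 ± 0.43 in Abcd2. It was -1.11 ± 0.25 in Slc2a4, -0.60 ± 0.18 in Agpat2, -0.62 ± 0.18 in Lpin1, -0.64 ± 0.20 in Dgat1, -1.06 ± 0.20 in Pparg, -0.40 ± 0.13 in Insr and -2.08 ± 0.32 in Ghr. Leaving out 1 of the 30 libraries lost the call of Insr in 19 fits, Dgat1 in 6, Agpat2 in 4 and Lpin1 in 2. None of the 14 was called on 18 libraries, and neither was any other gene of all those tested. With the replicate block the value on those libraries was -0.15 in Insr and -0.49 in Slc2a4.

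In 14 of 185 gene and group combinations a library lay apart from the others of its group by Dixon's test, which chance alone does in about 1 in 20 groups. Of these, 7 were the same library, vitiligo_ABX 003, the highest of its group in G0s2 (12 CPM), Aqp7 (2.17), Trarg1 (14.7), Thrsp (7.38), Pck1 (19.7), Gpd1 (118 CPM) and Mrap (3.34 CPM). The nearest other library of that group had 4.94 CPM in Pck1 and 49.0 CPM in Gpd1. Thrsp was also highest by a wide gap in vitiligo 063 (80.2 CPM) and no_induction_ABX 006 (2.02 CPM). The others were Mgll in no_induction_ABX 003 (1113 CPM, highest), Adrb3 in hippuric_acid 3 (0.265 CPM, lowest), Cebpb in no_induction 012 (116 CPM, highest), Insr in vitiligo 000 (68.0 CPM, highest) and Ghr in vitiligo_ABX 001 (25.8 CPM, lowest). Both no_induction 012 and vitiligo 000 also held gastrointestinal transcripts.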

How the results depend on the processing

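The count of the 37 genes called in vitiligo against no_induction was 25 to 28 under every alternative other than leaving out 1 library, which gave 28 to 29. With the Hoxb13 level in the model, 10 were called in vitiligo_ABX against vitiligo (30 without it), 0 in no_induction_ABX against no_induction (25), 2 in vitiligo_ABX against no_induction_ABX (1) and 1 with hippuric acid (21). Acaca then changed by 1.75 with hippuric acid, higher where the fit without it gave -0.22, not called. The cause was not tested. Hoxb13 did not overlap between hippuric_acid and vehicle, nor between either ABX group and its counterpart without ABX. In those comparisons this fit cannot separate the Hoxb13 level from the treatment. In vitiligo_ABX against no_induction_ABX, DESeq2 called 5 and the fit of all 38 libraries 3. Without the libraries with Y-linked transcripts Plin4 and Dgat1 were not called with hippuric acid, and Me1 was. Insr was then not called for the interaction. The calls of the 37 in vitiligo and with ABX alone did not change. Leaving out 1 library gave 29 to 31 with ABX under induction, 24 to 25 with ABX alone, 1 to 3 between the ABX groups, 16 to 23 with hippuric acid, 0 in vehicle against no_induction and 11 to 19 for the interaction.

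Whether the numbers in the labels pair the libraries is not settled. Same-numbered libraries deviated together in some pairs but in no comparison in every pair. With ABX alone their correlation was 0.380 for number 5, where other numbers reached at most 0.274. For number 3 it was -0.140, where other numbers reached 0.386. With the replicate block, 15 genes were called in vitiligo_ABX against vitiligo (4 libraries), 3 in vitiligo_ABX against no_induction_ABX, 1 in vehicle against no_induction (Cidec) and 0 for the interaction (18 libraries). Without the block, the same libraries gave 15 in the first and 0 for the interaction. With hippuric acid they gave 8, where the block gave 14 on the same 6 libraries. Fewer libraries entered these fits than the main ones. Of the vitiligo group, the fits of 4 and 18 libraries held only 001 and 006.

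The counts over all genes moved as well. Over all genes, vitiligo against no_induction called 1070 genes, and 1767 with DESeq2, 1683 with all 38 libraries, 511 without the libraries with gastrointestinal transcripts, 270 with Hoxb13 and 688 to 2571 without 1 library. The ABX comparison under induction called 1837, and 2811 with all 38 libraries, 961 without the libraries with gastrointestinal transcripts, 32 with Hoxb13, 64 with the block (44 without it on the same libraries) and 1183 to 2803 without 1 library. ABX alone called 4351, and 1436 with the block (1064 without it) and 186 with Hoxb13. The ABX groups differed in 689, and in 1290 with DESeq2, 390 with Hoxb13 and 228 to 863 without 1 library. Hippuric acid called 1940, and 879 with the block (617 without it), 478 with Hoxb13 and 1149 to 2786 without 1 library. Vehicle against no_induction called 0, and 5 with DESeq2, 2 with the block, 5 without the libraries with gastrointestinal or Y-linked transcripts, and 0 to 2 without 1 library. The interaction called 1639, and 0 with the block or without it on 18 libraries, and 1177 to 2679 without 1 library. Depth limits the members with few counts: over the 6 no_induction_ABX libraries Mrap had 40 counts in all, Aqp7 57, Klb 65 and Adrb3 68.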
